A study of Mus musculus with 12 samples.

Results

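The 10 genes described here encode enzymes that set how long the MYC protein lives and how it is acetylated: the ubiquitin ligases Fbxw7, Skp2, Huwe1 and Stub1, the deubiquitinases Usp28 and Usp36, and the acetyltransferases Ep300, Crebbp, Kat2a and Kat5. They were chosen by name, and all 10 were found by symbol among the 37187 genes of the deposited table and were among the 14045 genes that passed the filter on low values. Messenger RNA was measured in mouse bone marrow cells sorted for c-Kit and Sca-1 without lineage markers (LSK cells, which hold the blood stem cells and multipotent progenitors). There were 3 libraries from each of 4 genotypes: dKO (lacking both Tet2 and Traf6), Tet2 KO, Traf6 KO and WT. Tet2 encodes an enzyme that oxidises methylated cytosine, and Traf6 a ubiquitin ligase of innate immune signalling whose relation to MYC the study set out to examine. Information on the alleles, the driver of the deletions, the strain, age and sex of the mice, and on whether the 3 libraries of a genotype came from separate animals is not given in the sources used here. The p-values therefore set differences only against the spread among these libraries, and that spread may be technical. In the limma fit over all libraries, the 4 genotypes shared an estimate of that spread for each gene.

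MYC is a transcription factor with a very short half-life. Phosphorylation marks it for Fbxw7, the substrate-binding subunit of an SCF ubiquitin ligase, and the proteasome then destroys it. Deubiquitinases such as Usp28 take the ubiquitin off again, and acetyltransferases both modify MYC directly and serve as its coactivators on chromatin. In blood stem cells the level of MYC protein is known to influence the choice between self-renewal and differentiation, and Fbxw7 is known there as a guardian of quiescence. The present data are RNA levels and hold no measurement of protein, ubiquitination or acetylation.

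As deposited, all 10 genes differed between dKO and WT libraries, 2 of them (Stub1 and Kat5) higher and 8 lower in dKO. Over all genes tested in that comparison, 21.9% were called higher and 26.5% lower in dKO (limma adjusted p under 0.05). With limma none of the 10 was called in Tet2 KO or in Traf6 KO against WT. Ep300 passed in Tet2 KO with DESeq2, for which the share of all genes called is not given here. With the length trend taken off, the limma change of Ep300 there was -0.64 and was not called. The direction in dKO followed transcript length, since the 2 that rose have the shortest transcripts of the set and the 8 that fell the longest, and the same was true of the whole transcriptome. After that trend was taken off in each library, 6 of the 10 still differed: Usp28, Ep300 and Fbxw7 were lower in dKO, Stub1 and Kat5 were higher, and Huwe1 passed the test in the opposite direction, higher in dKO. Of these 6 calls, those of Usp28 and Ep300 held whichever of the 12 libraries was left out.

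The start regions of 4 of the genes are printed because they carry the ends of that pattern: Stub1 and Kat5 were higher, and Usp28 and Ep300 lower, in dKO both as deposited and with the trend taken off. Each is the 300 bases from 250 before to 50 after a transcription start, in the direction of the gene, taken from RefSeq on GRCm38.p6. Capitals mark CACGTG, the letters of the canonical E-box that MYC and its partner MAX recognise, or CACGCG, a variant of it, searched on both strands (the reverse of CACGCG reads CGCGTG).
Stub1, chr17:25832870-25833169, minus strand: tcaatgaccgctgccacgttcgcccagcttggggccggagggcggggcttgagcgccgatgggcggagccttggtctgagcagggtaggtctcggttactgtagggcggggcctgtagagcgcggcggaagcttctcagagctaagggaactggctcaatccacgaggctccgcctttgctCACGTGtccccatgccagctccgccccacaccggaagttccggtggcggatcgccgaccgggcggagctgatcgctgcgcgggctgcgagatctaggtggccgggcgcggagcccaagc
Kat5, chr19:5610045-5610344, minus strand: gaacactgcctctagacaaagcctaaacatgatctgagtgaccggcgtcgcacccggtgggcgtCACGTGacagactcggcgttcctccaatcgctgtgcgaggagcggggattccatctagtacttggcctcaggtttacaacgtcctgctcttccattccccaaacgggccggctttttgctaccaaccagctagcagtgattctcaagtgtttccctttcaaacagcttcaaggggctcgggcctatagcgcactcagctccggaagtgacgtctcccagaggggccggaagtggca
Usp28, chr9:48985135-48985434, plus strand: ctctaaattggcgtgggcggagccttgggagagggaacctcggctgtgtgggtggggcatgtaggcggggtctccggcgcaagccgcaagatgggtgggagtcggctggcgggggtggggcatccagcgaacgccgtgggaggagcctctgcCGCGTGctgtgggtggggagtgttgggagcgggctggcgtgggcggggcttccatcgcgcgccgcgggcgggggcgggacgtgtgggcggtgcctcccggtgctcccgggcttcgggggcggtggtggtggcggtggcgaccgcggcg
Ep300, chr15:81585964-81586263, plus strand: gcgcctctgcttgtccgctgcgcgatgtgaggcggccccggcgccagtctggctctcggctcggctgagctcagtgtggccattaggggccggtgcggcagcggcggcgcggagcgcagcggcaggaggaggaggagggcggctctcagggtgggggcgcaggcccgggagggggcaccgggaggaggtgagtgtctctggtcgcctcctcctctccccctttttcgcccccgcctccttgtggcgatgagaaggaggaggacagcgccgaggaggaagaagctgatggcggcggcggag

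Among the 14 start windows that RefSeq gives for the 10 genes, CACGTG stood in 2, that of Stub1 (first base at position -69 from the start) and the upstream one of the 2 Kat5 windows (position -186). Over all 32851 windows of this length in the table, 7.15% hold it. CACGCG stood in the windows of Usp28 (position -98) and Usp36 (position 26), against 9.27% of all windows. The Ep300 window held neither. Both motifs contain CG, and the median count of CG over all windows was 7. It was 31 in the Stub1 window, 19 in that Kat5 window, 35 in Usp28, 33 in Usp36 and 30 in Ep300. Shares among windows as rich in CG were not taken. These are matches of letters and not measured binding.

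Before the single genes, the state of the libraries has to be given. The recovered reads numbered 22169673 to 53921402 per library, and the 10 genes together took 0.0314 to 0.0756% of a library's signal. Within a library, the rank correlation between a gene's difference from the WT mean and its transcript length was -0.52, -0.59 and -0.60 in dKO. It was -0.03, -0.40 and -0.38 in Tet2 KO, -0.20, -0.38 and -0.03 in Traf6 KO, and -0.38, 0.21 and 0.29 in WT. The WT libraries thus differed among themselves in this trend. These correlations are a description over genes. Library dKO 3 stood apart with a total signal of 39973900, against 25557800 to 28916100 in the others. The labels were checked on the targeted genes, whose reads need not come from the deleted part. Tet2 signal was 326, 197 and 261 in dKO, 668, 403 and 486 in Tet2 KO, 722, 339 and 427 in Traf6 KO, and 525, 783 and 740 in WT. Its mean was 519 in Tet2 KO and 496 in Traf6 KO, so it does not tell these genotypes apart. Traf6 signal was 799, 1313 and 967 in dKO, 3127, 1432 and 1776 in Tet2 KO, 2474, 854 and 568 in Traf6 KO, and 1935, 3006 and 2957 in WT. The library labelled Traf6 KO 1 was thus at the WT level of Traf6, and the library labelled Tet2 KO 1 at the WT level of Tet2. In dKO both genes were lower than in WT as deposited (log2 change -1.39, adjusted p = 0.00659 for Tet2, and -1.36, adjusted p = 0.0278 for Traf6) and neither was called with the trend taken off (0.09 and -0.16), and the Traf6 call was lost without dKO 1 (-1.19), dKO 3 (-1.33), WT 2 (-1.25) or WT 3 (-1.26). Setting all libraries to an equal total moved the median of all tested genes in dKO against WT by -0.24 on the log2 scale, and left the counts of the 10 genes at 2 higher and 8 lower.

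Markers of the sorted cells were present in every library. The summed signal of the 8 LSK markers was 89823 to 111603 in dKO, 123951 to 162818 in Tet2 KO, 117492 to 147815 in Traf6 KO and 136969 to 152168 in WT, and none of the 8 was at 0 in all libraries of a genotype. In dKO, 4 of the 8 fell and none rose, among them Kit (-2.99), Gata2 (-1.63) and Meis1 (-0.89, against 0.31 with the trend taken off). Trend-adjusted, 1 of the 8 was higher and 3 lower. Over all genes 21.9% were called higher and 26.5% lower as deposited, and 15.7% and 13.8% trend-adjusted. Ly6a, which encodes the Sca-1 of the gate, had 1968, 2446 and 13218 in dKO and 2339, 2205 and 1990 in WT, and Procr had 963, 1723 and 4613 in dKO and 1736, 1346 and 1089 in WT. Neither was called (0.88 and 0.53), nor was Cd34 (0.26), and library dKO 3 was the highest of the 12 for both Ly6a and Procr. Kit, the c-Kit receptor of the gate itself, had 11935, 4099 and 4105 in dKO and 46708 ± 1926 (SD, n = 3) in WT. The summed signal of the 11 lineage markers was 1697 to 5274 in dKO, 1729 to 3053 in Tet2 KO, 1490 to 2464 in Traf6 KO and 1404 to 2144 in WT, and the T cell gene Cd3e was at 0 in all 12 libraries. The 4 stromal and endothelial markers summed to 1206 to 3439 in dKO, 3345 to 4122 in Tet2 KO, 3239 to 4461 in Traf6 KO and 3616 to 4437 in WT, nearly all of it Pecam1, which stem cells also carry; Cdh5 and Col1a1 were at or near 0. Calls in these 2 lists included Itgam (-1.02), Cxcl12 (-3.89) and Pecam1 (-0.84). Itgam lost its call without dKO 2 or 3, Tet2 KO 3 or any WT library (-1.13 to -0.79), Cxcl12 without any dKO or WT library or Traf6 KO 3 (-4.42 to -3.42), and Pecam1 without dKO 2 or 3, any Tet2 KO or WT library or Traf6 KO 1 (-0.91 to -0.42). In bulk samples fewer cells of a type and less RNA per cell cannot be told apart, and the part of cell composition in the results below was not tested.

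The values below are normalised signal (whole reads divided by a size factor per library), and changes are limma log2 differences on log2(value + 1), which understate the change of genes with few reads. A trend-adjusted change is the same difference after a loess trend was taken off in each library, fitted to the longest transcript of a gene by its length and its GC content.

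**Figure D1:**
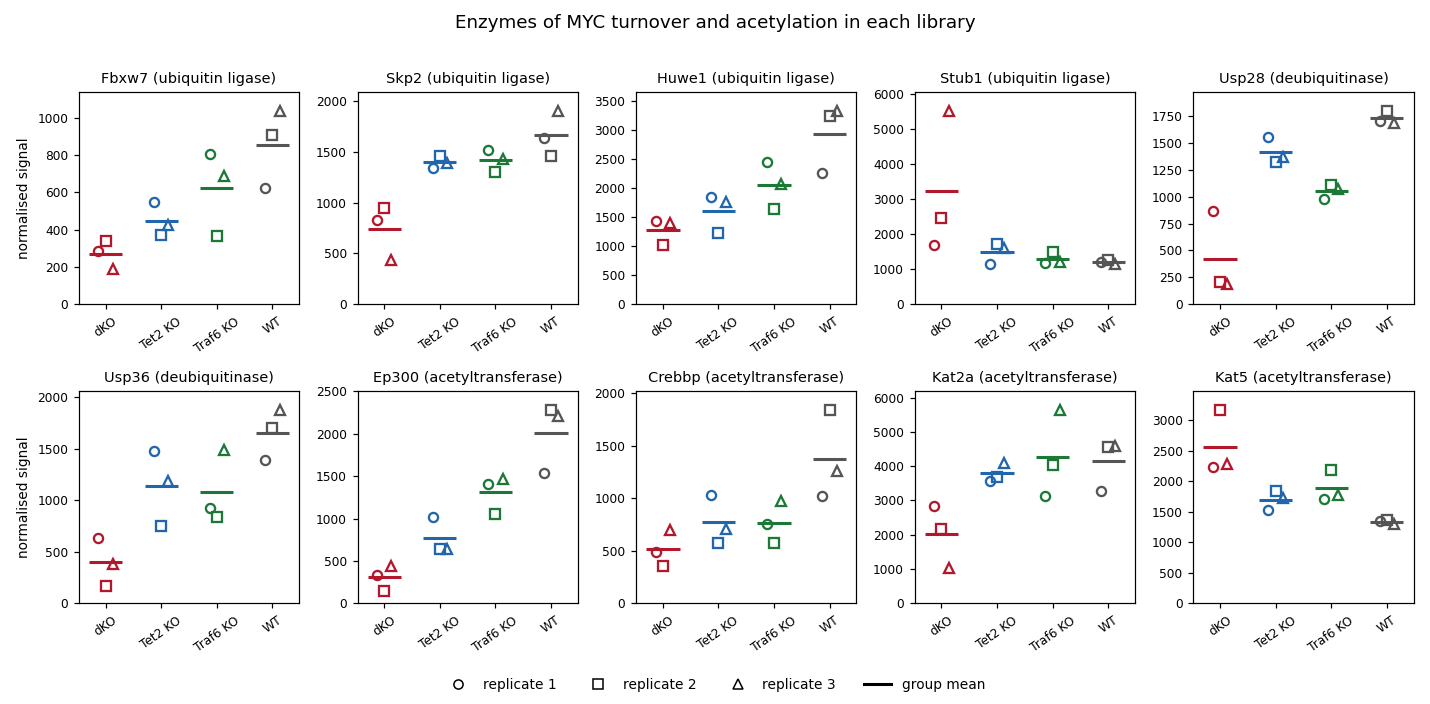
Normalised signal of each enzyme gene (vertical axes, from 0) in the 12 libraries, by genotype on the horizontal axes (dKO, Tet2 KO, Traf6 KO, WT); symbols are replicate numbers and bars are group means. All 3 dKO libraries lie below all 3 WT libraries in 8 panels and above them for Stub1 and Kat5. The share of all tested genes that separate in this way was not counted, and 21.9% were called higher and 26.5% lower in dKO against WT.

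The ubiquitin ligases were lower in dKO except Stub1, but only Fbxw7 and Stub1 kept both direction and call when the length trend was taken off. Fbxw7 (chromosome 3, 84815268 to 84979198, plus strand, GRCm38) encodes the F-box protein that binds phosphorylated MYC. Its signal was 285, 338 and 188 in dKO, 546, 371 and 424 in Tet2 KO, 808, 367 and 688 in Traf6 KO and 622, 906 and 1035 in WT. The dKO libraries were all below the WT libraries, and the single knockouts lay between with Traf6 KO overlapping WT. Between dKO and WT the change was -1.67 (SE 0.36, adjusted p = 0.0032), and trend-adjusted -0.91 (adjusted p = 0.0349). That second call was lost without dKO 1 (-0.79), dKO 3 (-0.79), WT 2 (-0.87) or WT 3 (-0.79).

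Skp2 (chromosome 15, 9111985 to 9155425, minus strand) encodes another F-box protein, which ubiquitinates MYC and also acts as its transcriptional cofactor. Its signal was 830, 950 and 438 in dKO, 1345, 1462 and 1390 in Tet2 KO, 1521, 1303 and 1430 in Traf6 KO and 1635, 1462 and 1900 in WT. The dKO libraries were below the other 9, while Traf6 KO overlapped WT and the highest Tet2 KO library lay just under the lowest WT library. The change in dKO against WT was -1.24 (SE 0.28, adjusted p = 0.00399), and trend-adjusted -0.08 (95% interval -0.66 to 0.50).

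Huwe1 (chromosome X, 151800807 to 151935417, plus strand) encodes a very large HECT-type ligase that attaches ubiquitin to MYC among many substrates, and has the longest transcript of the set at 14579 nt. Its signal was 1426, 1021 and 1389 in dKO, 1845, 1227 and 1760 in Tet2 KO, 2450, 1639 and 2066 in Traf6 KO and 2250, 3237 and 3322 in WT. Between dKO and WT the change was -1.19 as deposited (SE 0.26, adjusted p = 0.00353) and turned to 0.61 trend-adjusted (95% interval 0.17 to 1.05, adjusted p = 0.0395), so its direction depended on the correction. The trend-adjusted call was lost without dKO 1 (0.54), dKO 2 (0.59), Tet2 KO 2 (0.61), Traf6 KO 1 (0.61), WT 1 (0.57), WT 2 (0.62) or WT 3 (0.63). As an X-linked gene it is set beside Xist, the RNA that silences an X chromosome in females. Xist signal was at most 1.3 in dKO and 17.0 in WT, but 990 to 3826 in Tet2 KO and 1164 to 2095 in Traf6 KO; the Y-linked Eif2s3y was at 4230 to 5669 in dKO, 1.0 to 55.4 in Tet2 KO, 1524, 2.3 and 0.9 in Traf6 KO and 2812 to 3199 in WT. These sex-linked signals set both single knockouts apart from dKO and WT, and library Traf6 KO 1 held both Xist (1574) and Eif2s3y (1524). Sex and genotype therefore cannot be told apart where a single knockout is compared with WT or dKO, or in the interaction. This holds for every gene of the set, and the part of sex in their values was not tested.

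Stub1 (chromosome 17, 25830505 to 25833404, minus strand) encodes CHIP, a chaperone-bound U-box ligase reported to ubiquitinate MYC, and has the shortest transcript of the set at 1803 nt. Its signal was 1680, 2466 and 5517 in dKO, 1144, 1718 and 1612 in Tet2 KO, 1164, 1493 and 1205 in Traf6 KO and 1197, 1250 and 1155 in WT. The 3 dKO libraries were above all WT libraries but spread over a wide range, whereas the WT libraries were close together. The change in dKO against WT was 1.24 (SE 0.35, adjusted p = 0.0124), and 0.76 without dKO 3. Trend-adjusted it was 0.71 (adjusted p = 0.0336), a call lost without dKO 2 (0.76), dKO 3 (0.43), WT 1 (0.72), WT 2 (0.72) or WT 3 (0.69). Stub1 shares 1084 exonic nt, 42.3% of its exons, with Jmjd8 on the opposite strand. The library kit does not mark strand, so reads of the pair cannot be told apart there. Jmjd8 averaged 759 ± 107 in dKO and 854 ± 23.2 in WT (SD, n = 3 each), a change of -0.18 (adjusted p = 0.558).

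Both deubiquitinases fell in dKO, and Usp28 did so by more than any other gene of the set once length was taken into account. Usp28 (chromosome 9, 48985375 to 49042517, plus strand) encodes the enzyme that binds MYC through Fbxw7 and reverses its ubiquitination. Its signal was 865, 205 and 184 in dKO, 1554, 1321 and 1366 in Tet2 KO, 980, 1112 and 1067 in Traf6 KO and 1706, 1795 and 1682 in WT. The WT libraries differed little, all of Tet2 KO and Traf6 KO lay below them, and library dKO 1 was well above the other dKO libraries but below every other one. Between dKO and WT the change was -2.43 (SE 0.45, adjusted p = 0.00136), and trend-adjusted -1.82 (SE 0.35, adjusted p = 0.00329). With each of the 12 libraries left out in turn, the trend-adjusted change stayed between -2.38 and -1.54 and was called each time, at adjusted p up to 0.0169.

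Usp36 (chromosome 11, 118259651 to 118290244, minus strand) encodes a nucleolar deubiquitinase that acts on MYC in the nucleolus. Its signal was 636, 170 and 381 in dKO, 1473, 750 and 1181 in Tet2 KO, 925, 839 and 1482 in Traf6 KO and 1387, 1695 and 1872 in WT. The dKO libraries were all lower than the other 9, while both single knockouts overlapped WT. The change in dKO against WT was -2.24 (SE 0.43, adjusted p = 0.00165), and trend-adjusted -0.70 (95% interval -1.33 to -0.08, adjusted p = 0.0842), which passed the threshold without dKO 1 (-0.996, adjusted p = 0.0126).

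**Figure D2:**
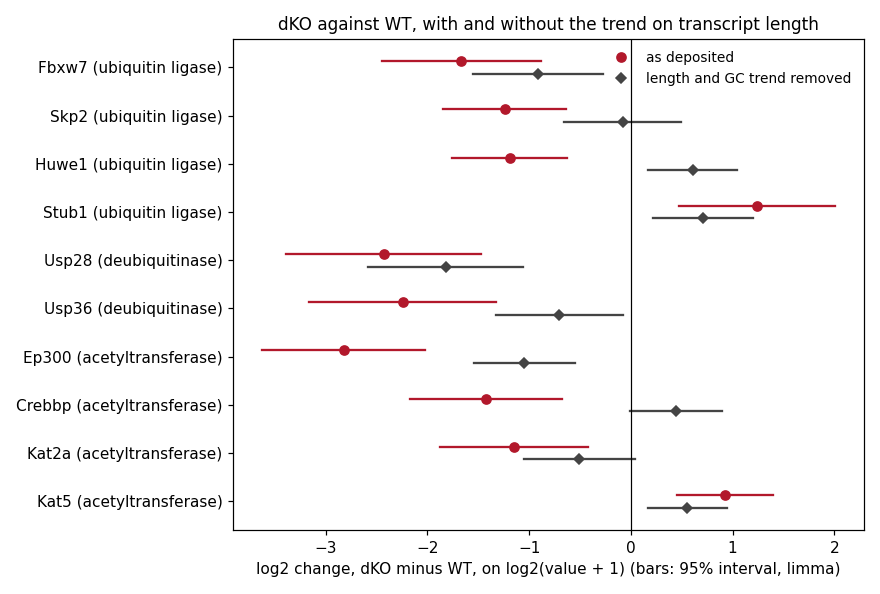
log2 change of each enzyme gene in dKO minus WT (horizontal axis, points with 95% intervals from limma), as deposited (circles) and with the length and GC trend taken off (diamonds). The intervals of Usp28, Usp36, Ep300 and Fbxw7 stay below 0 and those of Stub1 and Kat5 above 0 in both, though Usp36 was not called trend-adjusted. The points of Huwe1 and Crebbp cross from -1.19 and -1.43 to 0.61 and 0.44. Trend-adjusted, the intervals of Skp2, Crebbp and Kat2a include 0.

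The acetyltransferases split in dKO, with Kat5 higher and Ep300, Crebbp and Kat2a lower as deposited; Crebbp changed sign when the trend was taken off. Ep300 (chromosome 15, 81585351 to 81652077, plus strand) and Crebbp (chromosome 16, 4081328 to 4213997, minus strand) encode the paralogous coactivators p300 and CBP, which acetylate histones and also MYC. Ep300 signal was 329, 149 and 440 in dKO, 1020, 643 and 645 in Tet2 KO, 1408, 1050 and 1472 in Traf6 KO and 1540, 2277 and 2204 in WT. The 4 genotypes did not overlap at all for Ep300, in the order dKO, Tet2 KO, Traf6 KO and WT from low to high. Its change in dKO against WT was -2.82 (SE 0.37, adjusted p = 0.00033), the furthest from 0 of the 10 genes as deposited, and trend-adjusted -1.05 (SE 0.23, adjusted p = 0.00589). With single libraries left out, the trend-adjusted change ranged from -1.28 to -0.78 and was called each time, at adjusted p up to 0.0301.

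Crebbp signal was 484, 356 and 701 in dKO, 1033, 576 and 703 in Tet2 KO, 753, 570 and 972 in Traf6 KO and 1020, 1839 and 1258 in WT. The dKO and Traf6 KO libraries lay below WT, and Tet2 KO overlapped WT through library 1. Between dKO and WT the change was -1.43 (SE 0.35, adjusted p = 0.00558) as deposited, but 0.44 trend-adjusted (95% interval -0.01 to 0.90, adjusted p = 0.127).

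Kat2a (chromosome 11, 100704746 to 100712465, minus strand) encodes GCN5, the acetyltransferase of the SAGA and ATAC complexes, and acetylates MYC. Its signal was 2825, 2178 and 1028 in dKO, 3576, 3681 and 4102 in Tet2 KO, 3129, 4032 and 5630 in Traf6 KO and 3285, 4556 and 4586 in WT. The single knockouts overlapped WT and dKO did not. The change in dKO against WT was -1.15 (SE 0.34, adjusted p = 0.0142). It was -0.72 without dKO 3, and the call was lost without WT 2 (-1.07, adjusted p = 0.0535) or WT 3 (-1.06, adjusted p = 0.0532). Trend-adjusted it was -0.51 (95% interval -1.05 to 0.04, adjusted p = 0.149).

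Kat5 (chromosome 19, 5603014 to 5610237, minus strand) encodes TIP60, the acetyltransferase of the NuA4 complex, which acetylates MYC and histones. Its signal was 2244, 3167 and 2282 in dKO, 1538, 1840 and 1719 in Tet2 KO, 1714, 2181 and 1769 in Traf6 KO and 1345, 1368 and 1293 in WT. Every library of the 3 mutant genotypes was above every WT library. Between dKO and WT the change was 0.92 (SE 0.22, adjusted p = 0.00491), and trend-adjusted 0.56 (adjusted p = 0.035). The second call was lost without dKO 2 (0.39), WT 1 (0.56), WT 2 (0.57) or WT 3 (0.53). Kat5 shares 426 exonic nt, 12.1% of its exons, with Rnaseh2c on the opposite strand, which had 1147, 1221 and 6834 in dKO and 568 ± 84.6 (SD, n = 3) in WT, a change of 1.91 (adjusted p = 0.0133). Reads of the pair cannot be told apart over the shared stretch, and the part of Rnaseh2c in the Kat5 values was not tested.

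Transcript length sorted the 10 genes as it sorted the transcriptome. Among all tested genes whose longest transcript had at most 2000 nt, the class of Stub1, the median change in dKO against WT was 1.18, and 50.8% were called higher and 2.25% lower. Above 2000 and up to 4000 nt, the class of Kat2a (3269 nt) and Kat5 (2245 nt), the median was -0.03, with 18.9% higher and 17.3% lower. Above 4000 and up to 8000 nt, where Fbxw7 (4473 nt), Skp2 (6185 nt), Usp28 (4133 nt) and Usp36 (5655 nt) fall, the median was -1.20, with 6.28% higher and 53.4% lower. Over 8000 nt, where Huwe1, Ep300 (9566 nt) and Crebbp (10820 nt) fall, it was -1.46, with 2.61% higher and 59.9% lower. Fbxw7 (-1.67), Usp28 (-2.43), Usp36 (-2.24) and Ep300 (-2.82) lay below the median of their class, Huwe1 (-1.19) above it, and Skp2 (-1.24), Stub1 (1.24) and Crebbp (-1.43) within 0.1 of it. Kat5 (0.92) and Kat2a (-1.15) lay on opposite sides of the median of the class they share. With the trend taken off, 15.7% of the 13679 genes with a length were called higher and 13.8% lower in dKO, against 3 higher (Huwe1, Stub1, Kat5) and 3 lower (Fbxw7, Usp28, Ep300) of the 10. The median change of the 10 was -1.33 as deposited and -0.29 trend-adjusted, beside -0.09 and -0.03 over all genes tested. The longest annotated transcript need not be the one these cells use.

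**Figure D3:**
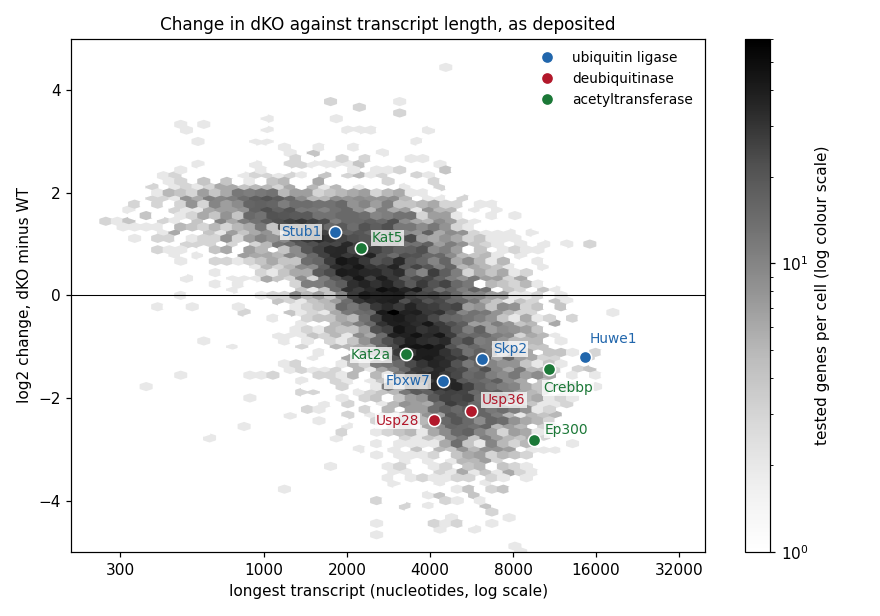
Change in dKO minus WT (vertical axis, log2, as deposited) against the longest annotated transcript (horizontal axis, nucleotides, log scale); the grey cells count the 13679 tested genes with a length (90 lie outside the axes) and the coloured points are the 10 enzyme genes. Changes run from above 0 for short transcripts to below 0 for long ones, with Stub1 at 1.24 and Ep300 at -2.82, and Huwe1 lies at the far right at -1.19.

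Levels between genes were compared per length, as mean signal per 1000 nt of the longest transcript. In dKO, Stub1 stood first at 1787 ± 1124, Kat5 second at 1142 ± 233 and Kat2a next at 615 ± 278 (SD, n = 3 each). The libraries of Stub1 and Kat5 overlapped in dKO, those of Kat5 and Kat2a did not, and the other 7 genes lay between 119 for Skp2 and 32.0 for Ep300, each overlapping the next. In WT, Kat2a stood first at 1267 ± 227, ahead of Stub1 at 666 ± 26.3, Kat5 at 595 ± 17.1 and Usp28 at 418 ± 14.3, and these 4 did not overlap one another. Usp36 (292), Skp2 (269), Ep300 (210), Huwe1 (201), Fbxw7 (191) and Crebbp (127) followed in WT, each overlapping the next. Kat2a was also first in Tet2 KO (1158 ± 85.3) and in Traf6 KO (1304 ± 387), where its libraries overlapped those of Kat5 (841 ± 114), and these levels carry the length trend.

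In the single knockouts none of the 10 genes passed the limma test over all 12 libraries. The sex-linked signals given with Huwe1 also differ between both single knockouts and WT. In Tet2 KO against WT, 0.107% of tested genes were called higher and 0.306% lower (limma adjusted p under 0.05). The share of all genes with an unadjusted p under 0.05 was not taken, and 4 of the 10 had one with limma. These were Ep300 (-1.40, adjusted p = 0.168), Huwe1 (-0.87, adjusted p = 0.235), Fbxw7 (-0.92, adjusted p = 0.437) and Crebbp (-0.83, adjusted p = 0.488). Ep300 passed with DESeq2 (-1.38, adjusted p = 0.0172), which called no other of the 10, and edgeR called none. Ep300 also passed in a limma fit of only the groups compared, and both Ep300 and Huwe1 passed with a spread weighted by group (limma adjusted p = 0.00837 and 0.0355). The shares of all genes called with DESeq2 and in these other limma fits are not given here. The trend-adjusted changes in Tet2 KO were -0.64 for Ep300, -0.80 for Fbxw7 and 0.00 for both Huwe1 and Crebbp, none of them called. Library Tet2 KO 1, at the WT level of Tet2, had the highest Fbxw7, Huwe1, Usp28, Usp36, Ep300 and Crebbp signal of its group, and without it the counts remained at 0. That library also differed from its group in the length trend, with a rank correlation with transcript length of -0.03. In Tet2 KO 2 and 3 the correlation was -0.40 and -0.38. The part of the length trend in these high signals was not tested.

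In Traf6 KO against WT, 0.0783% of tested genes were called higher and 0.192% lower (limma adjusted p under 0.05). At an unadjusted p under 0.05, for which the share of all genes was not taken, stood 2 of the 10. These were Crebbp (-0.83, adjusted p = 0.588) and Kat5 (0.49, adjusted p = 0.62). Neither edgeR nor DESeq2 called any of the 10 there. Usp28 (-0.71, 95% interval -1.67 to 0.25) and Ep300 (-0.61, 95% interval -1.41 to 0.19) did not overlap WT either and were not called. Kat2a (0.02, 95% interval -0.71 to 0.74) and Stub1 (0.09, 95% interval -0.67 to 0.86) were nearest to 0, and the sign of each turned when a single library was left out. With library Traf6 KO 1 left out the counts were again 0.

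Set against the single knockouts, dKO was lower as deposited for 5 of the 10 genes in one comparison and 6 in the other. Both comparisons share the dKO libraries with each other and with the comparison to WT, so they are given side by side and not as separate support. In dKO against Tet2 KO, none was called higher and 5 lower, beside 15.5% and 19.9% of all genes: Usp28 (-2.14, adjusted p = 0.00838), Usp36 (-1.66, adjusted p = 0.0144), Ep300 (-1.43, adjusted p = 0.0149), Kat2a (-1.03, adjusted p = 0.0324) and Skp2 (-0.99, adjusted p = 0.0191). For the direction with no call, Stub1 and Kat5 had unadjusted p-values of 0.0186 and 0.0197 with limma, and edgeR called 1 of the 10 and DESeq2 2 higher. Without the library labelled Tet2 KO 1 only Usp28 was still called, since Usp36 (-1.44), Ep300 (-1.21), Skp2 (-1.02) and Kat2a (-1.07) then missed the threshold. Kat2a also missed it without Tet2 KO 2 (-1.05), Tet2 KO 3 (-0.97) or dKO 3 (-0.61), and Skp2 without Tet2 KO 2 (-0.96); Skp2 was -0.65 without dKO 3. Stub1 (0.95, adjusted p = 0.0517) passed without dKO 1 (1.33), and Kat5 (0.58, adjusted p = 0.0537) without dKO 1 (0.67) or dKO 3 (0.65). Trend-adjusted, Usp28 alone was called (-1.60, adjusted p = 0.0164), beside 8.98% of genes higher and 7.27% lower, and that call was lost without dKO 2 (-1.32) or Tet2 KO 1 (-1.56). Huwe1 trend-adjusted (0.61) passed without Tet2 KO 3 (0.83), Stub1 (0.54) without dKO 1 (0.77) and Usp36 (-0.60) without dKO 1 (-0.88).

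In dKO against Traf6 KO, Stub1 was called higher (1.15, adjusted p = 0.0259) and 6 were called lower, beside 17.3% and 20.7% of all genes. The 6 were Ep300 (-2.21, adjusted p = 0.00221), Usp28 (-1.71, adjusted p = 0.0142), Usp36 (-1.60, adjusted p = 0.0158), Skp2 (-1.01, adjusted p = 0.018), Kat2a (-1.16, adjusted p = 0.021) and Fbxw7 (-1.16, adjusted p = 0.0265). With library Traf6 KO 1 left out, Stub1 (1.08), Fbxw7 (-0.93) and Skp2 (-0.96) were no longer called. Without Traf6 KO 3, Stub1 (1.11), Fbxw7 (-1.05), Skp2 (-1.004), Usp36 (-1.35) and Kat2a (-0.94) were not, and without dKO 3, Stub1 (0.67), Fbxw7 (-0.92) and Kat2a (-0.74) were not, while Skp2 was at -0.67. Huwe1 (-0.68, adjusted p = 0.0569, against 0.69 trend-adjusted) passed as deposited without dKO 1 (-0.77) or Traf6 KO 2 (-0.83). Ep300 and Usp28 were called as deposited whichever library was left out. Trend-adjusted, Crebbp (0.84, adjusted p = 0.0172) and Huwe1 (0.69, adjusted p = 0.0334) were higher and Ep300 (-0.84, adjusted p = 0.025) and Usp28 (-1.18, adjusted p = 0.034) lower in dKO, beside 10.3% of genes higher and 9.17% lower; Crebbp and Huwe1 were -0.59 and -0.68 as deposited.

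Those 4 trend-adjusted calls rested on single libraries to different degrees. Crebbp lost its call without Traf6 KO 1 (0.73). Huwe1 lost it without dKO 2 (0.67), Traf6 KO 1 (0.68), Traf6 KO 3 (0.63), WT 2 (0.68) or WT 3 (0.69). Ep300 lost it without dKO 2 (-0.56), Traf6 KO 1 (-0.88), Traf6 KO 2 (-0.78) or Traf6 KO 3 (-0.86), and Usp28 without dKO 2 (-0.90), dKO 3 (-0.90), Traf6 KO 1 (-1.25), Traf6 KO 2 (-1.08) or Traf6 KO 3 (-1.22). Stub1 (0.65) and Kat2a (-0.64) passed only without dKO 1 (0.88 and -0.82).

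**Figure D4:**
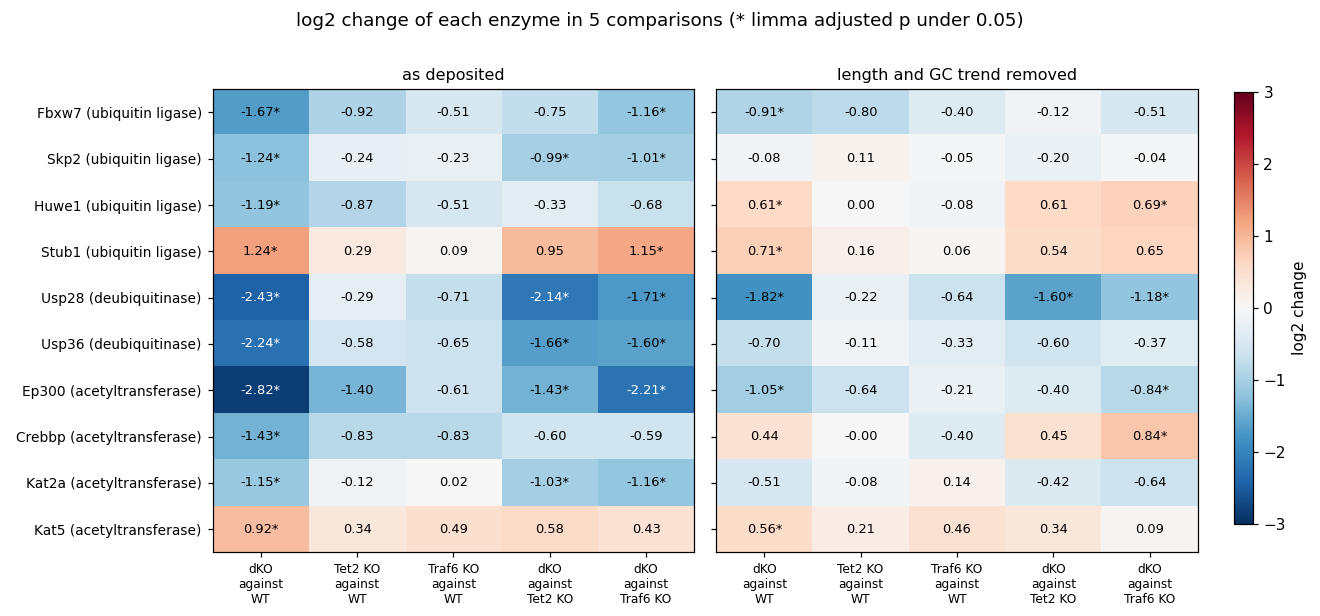
log2 changes of the 10 enzyme genes (rows) in 5 comparisons (columns), as deposited on the left and with the length and GC trend taken off on the right; colour and printed number are the change and an asterisk marks a limma adjusted p under 0.05. Calls stand only in the 3 dKO columns, and Usp28 is the row with an asterisk in all 3 of them in both panels.

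The interaction asks whether losing both genes gave more or less than the sum of the single losses (the dKO to Tet2 KO difference less the Traf6 KO to WT difference). None of the 10 passed, beside 0.107% of all genes higher and 0.114% lower, and edgeR called none either. With limma 2 had an unadjusted p under 0.05, a threshold at which the share of all genes was not taken. The furthest from 0 was Usp28 (-1.42, 95% interval -2.78 to -0.06, adjusted p = 0.265), followed by Kat2a (-1.05, 95% interval -2.07 to -0.02, adjusted p = 0.267) and Usp36 (-1.02, 95% interval -2.32 to 0.29). Without dKO 1, whose Usp28 signal was the highest of its group, Usp28 (-2.14, adjusted p = 0.00295) and Kat2a (-1.35, adjusted p = 0.0479) passed. Trend-adjusted, Usp28 was at -0.96, and at -1.51 (adjusted p = 0.0108) without dKO 1. The signs for Crebbp (0.24) and Kat5 (0.09) turned without dKO 3 (-0.01) and without dKO 2 (-0.07).

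Ratios of enzymes with paired roles cancel what a library does to both alike; these 3 were chosen after the values had been seen. The Ep300 to Crebbp signal ratio was 0.68, 0.42 and 0.63 in dKO, 0.99, 1.12 and 0.92 in Tet2 KO, 1.87, 1.84 and 1.51 in Traf6 KO and 1.51, 1.24 and 1.75 in WT. The 2 transcripts are of similar length, and the ratio was below 1 in every dKO library and above 1 in every Traf6 KO and WT library. On the log2 scale the ratio was -0.83 ± 0.38 in dKO and 0.57 ± 0.25 in WT (SD, n = 3 each), a difference of -1.40, which ranged from -1.54 to -1.18 over 6 single libraries left out and the trend taken off. The exact two-sided permutation p was 0.1, the smallest that 3 against 3 libraries allow, and 0.167 when adjusted over the 15 such comparisons. Tet2 KO was lower than WT by -0.57 (exact permutation p = 0.1), and Traf6 KO differed from WT by 0.22 (exact permutation p = 0.2).

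The Kat5 to Kat2a ratio was 0.79, 1.45 and 2.22 in dKO, 0.43, 0.50 and 0.42 in Tet2 KO, 0.55, 0.54 and 0.31 in Traf6 KO and 0.41, 0.30 and 0.28 in WT. All dKO libraries were above all the others. The log2 ratio was 0.45 ± 0.75 in dKO and -1.62 ± 0.29 in WT, a difference of 2.07, and 1.06 with the trend taken off (exact permutation p = 0.1, adjusted 0.167). The Fbxw7 to Usp28 ratio, of the ligase subunit to the enzyme that reverses it, was 0.33, 1.65 and 1.02 in dKO, 0.35, 0.28 and 0.31 in Tet2 KO, 0.82, 0.33 and 0.64 in Traf6 KO and 0.36, 0.50 and 0.62 in WT. Library dKO 1 was at the level of the single knockouts and the other dKO libraries were above all the rest, so dKO overlapped WT (difference of the log2 ratios 0.76, exact permutation p = 0.4). The Tet2 KO libraries were all below WT (-0.63, exact permutation p = 0.1).

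**Figure D5:**
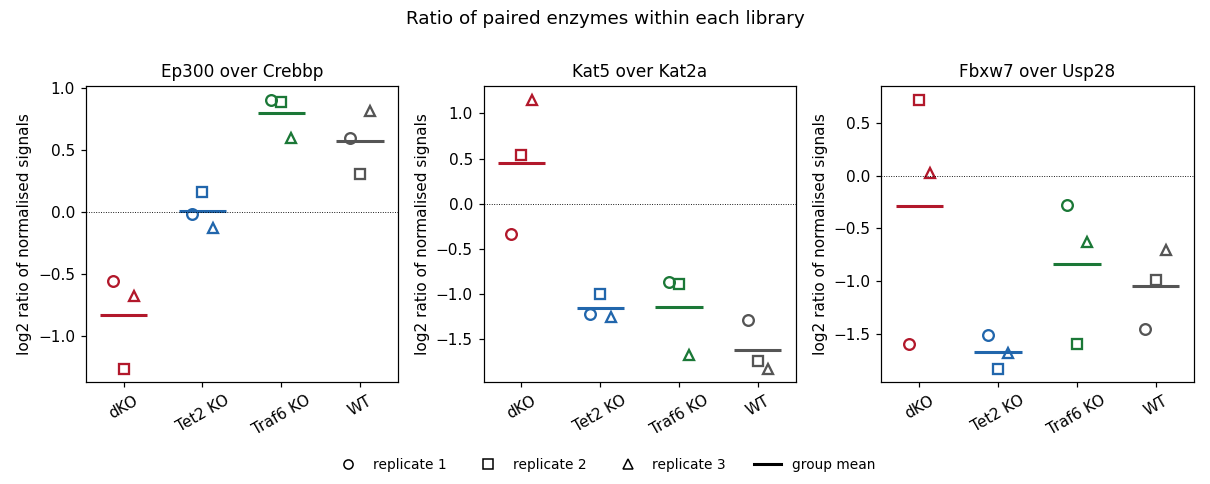
log2 ratio of the normalised signals of 2 genes within each library (vertical axes), for Ep300 over Crebbp, Kat5 over Kat2a and Fbxw7 over Usp28, by genotype on the horizontal axes; symbols are replicate numbers, bars group means and the dotted line a ratio of 1. Ep300 over Crebbp is below 0 in all 3 dKO libraries and above 0 in all Traf6 KO and WT libraries, and Fbxw7 over Usp28 is spread from 0.33 to 1.65 as a ratio in dKO.

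Myc itself had a signal of 27733, 28914 and 19627 in dKO, 18726, 23840 and 23186 in Tet2 KO, 11543, 17426 and 21305 in Traf6 KO and 18778, 19732 and 19670 in WT. Its change in dKO against WT was 0.37 (95% interval -0.14 to 0.88, adjusted p = 0.214), and trend-adjusted 0.03. Library 3 of dKO lay within the WT range and the other dKO libraries lay above it.

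The rest of the pathway was read from lists of related genes, in dKO against WT first as deposited and then trend-adjusted. Of the 6 SCF core genes, 5 rose and none fell, and 2 rose trend-adjusted, beside 21.9% of all genes called higher as deposited and 15.7% trend-adjusted. They include the ubiquitin-conjugating enzyme Cdc34 (1.73, and 0.71 trend-adjusted), the RING subunit Rbx1 (1.505 and 1.16), the adaptor Skp1a (1.30 and 0.40) and the Skp2 cofactor Cks1b (1.89 and 0.43, and 1.20 without dKO 3). The median change of the list was 1.62 as deposited and 0.43 trend-adjusted.

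Of 15 other ligases reported for MYC, 1 rose and 10 fell, and 1 rose and 6 fell trend-adjusted (medians -1.15 and -0.47), beside 26.5% of all genes called lower as deposited and 13.8% trend-adjusted. The F-box gene Fbxl14 (-2.46 and -2.20) and the RING ligase Trim32 (-2.60 and -2.35) moved little with the trend, whereas the CUL4 adaptor Ddb1 (-2.44 and -1.45) moved more. Among 8 tested of 10 other deubiquitinases, none rose and 5 fell, and 3 fell trend-adjusted (medians -1.10 and -0.34). Usp7 (-2.06 and -1.25), Usp22 of the SAGA complex (-2.04 and -1.13) and Usp11 (-1.19 and -0.59) were called both ways, and Usp37 (-1.40 and -0.21) as deposited.

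Of 16 kinases, phosphatases and scaffolds around the phosphorylated degradation signal of MYC, 3 rose and 3 fell, and 4 rose and 3 fell trend-adjusted. Over all genes 21.9% were called higher and 26.5% lower as deposited, and 15.7% and 13.8% trend-adjusted. The counts as deposited lie below their shares and are no result about the list. The PP2A catalytic subunit Ppp2ca (0.62 and 1.88) was among those higher. Ppp2ca lost its call as deposited without dKO 2 (0.57) or WT 2 (0.61). The median of the list was -0.06, and -0.14 trend-adjusted. The pseudokinase Stk40 (-1.81 and -0.88) and the scaffold Axin1 (-1.54 and -0.64) were lower as deposited, and Stk40 also trend-adjusted.

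Of 23 subunits of acetyltransferase complexes, 6 rose and 7 fell, and 4 rose and 2 fell trend-adjusted (medians -0.29 and -0.03). The counts as deposited lie near the shares over all genes, 21.9% higher and 26.5% lower, and are no result about the complexes. Ruvbl2, an ATPase of the complex that holds Kat5, rose (1.21 and 1.06), and the SAGA subunit Atxn7 fell (-2.33 and -1.01). Trrap, the scaffold shared by the Kat2a and Kat5 complexes, was at -1.47 as deposited and 0.56 trend-adjusted, and the acetyltransferase Kat6a at -1.44 and 0.14, so both changed sign. Of 6 deacetylases, with a median of 0.38 as deposited and -0.00067 trend-adjusted, 1 fell as deposited and none was called trend-adjusted: Sirt1 (-0.92, and -0.28 trend-adjusted), a call lost without dKO 2 (-0.78), dKO 3 (-0.83), WT 2 (-0.92) or WT 3 (-0.82). No gene of these lists was called in Tet2 KO or Traf6 KO against WT or in the interaction. In dKO against Tet2 KO 5, 1, 1, 2, 2 and 0 genes of the 6 lists in this order rose, beside 15.5% of all genes. There 0, 8, 5, 2, 6 and 1 fell, beside 19.9% of all genes. Against Traf6 KO 5, 0, 1, 1, 5 and 0 rose, beside 17.3%, and 0, 10, 4, 3, 5 and 1 fell, beside 20.7%. Counts near these shares are no result about their list.

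For each of the 10 genes, the genes with the most similar pattern were sought as those with the smallest root mean square difference of log2 signal, centred on each gene's mean, over the 12 libraries and 10541 genes with a mean signal of at least 50, predicted genes left out. Stub1 had the closest match, Nsfl1c (0.09), followed by Vps72 (0.10), which encodes a subunit of the Kat5 complex. Kat5 was closest to Fam49b (0.12) and Dedd2 (0.13), Skp2 to Klhl7 (0.13) and Thsd1 (0.14), and Kat2a to Slc25a24 (0.13) and Odf2 (0.13). Ep300 was closest to the kinase gene Abl1 (0.16) and Btbd7 (0.20), Usp36 to Golga3 (0.16) and Gemin5 (0.17), and Huwe1 to Cbx5 (0.18) and Map4k4 (0.18). Fbxw7 was closest to the ubiquitin ligase gene Ubr1 (0.18) and Clip2 (0.20), and Crebbp to the table's entry for Rnf169 (0.19) and Rpl24 (0.20). Usp28 had the most distant nearest genes, Ephb6 (0.21) and Snapc4 (0.25). These distances describe the 12 libraries, whose shared length trend enters every one of them.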

How the data were processed

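RNA of sorted bone marrow LSK cells was made into libraries with the SMART-Seq v4 low input kit (full-length, primed on the poly(A) tail, no strand mark) and sequenced on a HiSeq 4000, per the labels' protocols. Tools named in the submitters' processing notes are STAR, featureCounts, DESeq2 and bcl2fastq, with GRCm38 and mm10 as builds; settings, versions and annotation are not given in the sources used here. The deposited table holds a normalised signal per gene: dividing by the smallest step of each library gave whole reads for 100% of values (tolerance 1e-06), 22169673 to 53921402 reads per library.

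Genes reaching a signal of 10 in 3 or more libraries entered limma 3.58.1 (R 4.3.3; trend and robust moderation) on log2(value + 1), all 12 libraries as 4 groups, with Benjamini-Hochberg adjustment over all 14045 genes and a threshold of 0.05. There were 6 comparisons. As alternatives, edgeR 4.0.16 and DESeq2 1.42.0 were run on the recovered reads, along with a pseudocount of 5, no filter, equal library totals, a loess trend (span 0.3) on transcript length and GC content taken off, the replicate block, only the groups compared, a spread weighted by group, and each library left out. The limma step was tested for dKO against WT on simulated counts without a length trend, and the outcome is not given here. Lengths and positions are from GENCODE M21 (GRCm38), matched for 30499 of 37187 genes, 2112 of them by synonym; promoters are from RefSeq. Ratios were tested with exact permutation tests. Named genes were the 10 enzymes, Tet2, Traf6 and Myc, up to 4 called genes per list by smallest p (given for dKO against WT), and 2 genes of most similar pattern for each enzyme; a few of the genes so named are not reported here. Overlapping antisense genes and the sex-linked genes were added after the values were seen. The 10 enzymes and the lists were chosen with earlier results of these data known.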

Additional observations from a re-analysis of the deposited data

How the results depend on the processing

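In dKO against WT the 10 genes stayed at 2 higher and 7 to 8 lower with single libraries left out, and 1 was higher when only the groups compared were fitted. With the length and GC trend taken off 3 were lower and 3 higher, and 2 were lower and 2 higher with the replicate block as well. In Tet2 KO against WT 1 was lower with only the groups compared, 2 with a spread weighted by group and 1 with DESeq2. In dKO against Tet2 KO 1 was higher with the replicate block, 1 with edgeR and 2 with DESeq2 (0 to 2 with single libraries left out); 1 was lower with the trend taken off, with or without the block, 0 with only the groups compared, and 1 to 5 with single libraries left out. In dKO against Traf6 KO 2 were higher and 2 lower with the trend taken off, with or without the block, 0 higher and 1 lower with only the groups compared, and 0 to 1 higher and 2 to 7 lower with single libraries left out. In the interaction 0 to 2 were lower with single libraries left out. No share of all genes called is given for these alternative fits, except in dKO with the trend taken off. Fits on only the groups compared hold fewer samples. For the other changes the cause was not tested.

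Signs turned with the trend taken off, with or without the block, for Huwe1 (0.61 against WT, 0.61 against Tet2 KO and 0.69 against Traf6 KO in dKO; 0.0025 in Tet2 KO against WT), Crebbp (0.44, 0.45 and 0.84 in dKO), Skp2 (0.11 in Tet2 KO against WT), Fbxw7 and Kat5 in the interaction (0.29 and -0.12), and in dKO against WT for Trrap (0.56), Kat6a (0.14), Meis1 (0.31) and Tet2 (0.087; 0.21 in Tet2 KO). With equal library totals they turned for Kat2a in Traf6 KO against WT (-0.047) and for Huwe1 (-0.0040) and Kat5 (-0.11) in the interaction. With 1 library left out they turned in Traf6 KO against WT for Kat2a (range -0.205 to 0.219), Stub1 (-0.0187 to 0.161) and the Fbxw7 to Usp28 ratio (-0.0699 to 0.591), and in the interaction for Crebbp (-0.0144 to 0.473) and Kat5 (-0.0742 to 0.196). The cause was not tested.

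Replicate numbers did not pair the libraries: of 18 same-numbered pairs, 3 had deviations correlated above 0.1 (range -0.18 to 0.19). Added to the fit as deposited, the replicate block moved 1 call among the 10 genes, Stub1 in dKO against Tet2 KO (0.95 on the log2 scale), which then passed the threshold. Added to the fit with the trend taken off, it moved 2 calls in dKO against WT, Fbxw7 (-0.91) and Huwe1 (0.61), which then missed it.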
